A study of Mus musculus with 10 samples.

Results

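Mitf, Tfeb, Tfec and Tfe3 make up the MiT/TFE family of transcription factors, and 53 of the 122984 ATAC-seq peaks in the deposited table lay at these 4 genes. A peak was taken when it lay inside the RefSeq bounds of one of the genes, or outside all genes with one of them as the nearest protein-coding gene within 50 kb. By that rule Mitf had 31 peaks, Tfeb 12, Tfec 5 and Tfe3 5, and all 53 passed the filter on low counts. The family was chosen by measured values: Mitf was taken up because a peak in its body was far higher after forskolin than in control in these same libraries, and Tfeb, Tfec and Tfe3 were added as its relatives. Comparisons of Mitf between forskolin and control, and every value of that body peak, are therefore given as a description with no p-value.

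ATAC-seq counts DNA fragments cut by a transposase, so a higher count in a peak means that the DNA there was more open to the enzyme. The cells were adipocytes differentiated from MAP cells, an immortalized line of mouse adipocyte progenitors, and 10 libraries formed 5 groups of 2. The groups were control (vehicle; libraries S1 and S2), forskolin for 4 hours (S3 and S4), forskolin for 1 day (S5 and S6), forskolin for 3 days (S7 and S8) and rosiglitazone for 3 days (S9 and S10). Forskolin switches on the enzyme that makes cAMP, the messenger behind adrenergic signals in adipocytes. Rosiglitazone is a drug that activates PPARγ, the master nuclear receptor of fat cells. All groups shared the differentiation, which the labels give as insulin, isobutylmethylxanthine, dexamethasone and rosiglitazone, so the control cells had seen rosiglitazone before, and isobutylmethylxanthine, a phosphodiesterase inhibitor that also raises cAMP. Treatment began at day 7 to 8 of differentiation, and 10000 sorted nuclei went into each library. The labels give no time for the control libraries, so whether they match each treated group in days of culture is not known. In comparisons with control and between forskolin times, treatment and time in culture therefore cannot be told apart. All libraries come from 1 cell line, and no source used here says whether the paired libraries were grown as separate cultures, so the p-values measure only the spread between these libraries. Each library held between 10410233 and 18935287 counts in peaks, and intervals on ratios of counts cover counting error only.

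MiT/TFE proteins are basic helix-loop-helix leucine zipper factors that bind DNA as homodimers or as heterodimers with one another, at E-box sequences. Tfeb and Tfe3 are held in the cytosol by mTORC1 at the lysosome when nutrients are ample, and switch on genes of lysosomes and autophagy when they enter the nucleus. Mitf directs pigment cells, osteoclasts and mast cells and is read from several alternative promoters, while Tfec is known mainly from the macrophage lineage. In melanocytes, cAMP acts on the most downstream Mitf promoter through a cAMP response element bound by CREB. In adipocytes Tfeb and Tfe3 are known as regulators of lysosomal and mitochondrial genes, among them the coactivator gene Ppargc1a.

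Because Mitf has more than 1 promoter, the bases before its 3 start sites in the RefSeq promoter table (build GRCm38) are shown first, each 5′ to 3′ on the plus strand. The capitals mark TGACGTCA, the full cAMP response element, where it was found. The first sequence covers chr6:97806808-97807001 and stops at the annotated gene bound, the second covers chr6:97929567-97929816, and the last covers chr6:97991533-97991782, next to the start site of the form known from melanocytes.

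Mitf start site 97807058: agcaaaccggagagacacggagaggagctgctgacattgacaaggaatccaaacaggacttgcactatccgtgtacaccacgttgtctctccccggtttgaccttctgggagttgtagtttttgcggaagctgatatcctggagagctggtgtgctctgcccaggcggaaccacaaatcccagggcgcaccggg
Mitf start site 97929817: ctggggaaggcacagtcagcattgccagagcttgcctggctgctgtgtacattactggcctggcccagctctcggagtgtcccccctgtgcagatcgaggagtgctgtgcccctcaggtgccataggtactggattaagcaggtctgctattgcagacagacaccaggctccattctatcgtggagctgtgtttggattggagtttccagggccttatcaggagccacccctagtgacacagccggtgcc
Mitf start site 97991783: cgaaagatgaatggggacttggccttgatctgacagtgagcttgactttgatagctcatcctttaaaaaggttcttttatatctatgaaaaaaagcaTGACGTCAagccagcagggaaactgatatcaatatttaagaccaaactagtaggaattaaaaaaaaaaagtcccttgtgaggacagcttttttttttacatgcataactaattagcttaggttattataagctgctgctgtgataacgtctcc

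The cAMP response element was found in 1 of the 9 start-site windows of the 4 genes, the most downstream one of Mitf, where it begins 153 bases before the start site. Over 32851 RefSeq windows of the same length, 1.79% held it. The E-box CACGTG and the related CATGTG, read on both strands, were in none of the 9 windows and in 7.15% and 14.2% of all windows. Letters alone do not show that a factor binds there. Of the 3 Mitf start sites, only the first had a deposited peak over it, and the nearest peaks to the other two lay 2.6 kb and 2.2 kb away.

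Mitf spans 214.4 kb of chromosome 6 (97807002 to 98021360 in GRCm38), with 28 peaks inside its bounds and 3 between 45.4 and 49.1 kb before them. At its first start site (peak at 97806747 to 97807429) the level was 31.8 and 32.8 CPM (counts scaled to the library's total) in control. It was 34.2 and 32.7 CPM after 4 hours of forskolin, 29.1 and 30.4 after 1 day, 27.9 and 28.4 after 3 days. With rosiglitazone the 2 libraries had 34.3 and 35.6 CPM. In this peak, the strongest of the gene, log2 fold changes against control ran from −0.20 ± 0.127 (SE) at 3 days of forskolin to 0.11 ± 0.125 with rosiglitazone. For rosiglitazone the adjusted p was 0.668 (edgeR quasi-likelihood test, as in all adjusted p-values of peaks and genes here). The widest gap was between the 3-day treatments: both 3-day forskolin libraries were below all others and rosiglitazone was highest, a difference of −0.31 ± 0.123 (adjusted p = 0.0597).

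The picture was different 114.6 kb into the gene, at the body peak for which Mitf was taken up (97921401 to 97921917), which lies 7.9 kb before the second listed start site. There the raw counts were 0 and 2 in control, 104 and 101 after 4 hours of forskolin, 95 and 114 after 1 day, then 101 and 55 after 3 days. With rosiglitazone they were 5 and 8. In CPM the means were 0.0825 ± 0.117 (SD, n = 2) in control, 6.47 ± 0.529 at 4 hours, 5.56 ± 0.352 at 1 day, 5.15 ± 1.13 at 3 days and 0.419 ± 0.106 with rosiglitazone. All 6 forskolin libraries were above all 4 others. In bulk nuclei, opening in more cells and more opening per cell cannot be told apart. Set against the 2 counts of the control group, the forskolin level was 71.2 times as high at 4 hours. This ratio is scaled by library size and TMM factor, and its 95% counting interval is 19.4 to 592. By log2 fold change the peak ranked 97 among 118962 tested peaks at 4 hours, 74 at 1 day and 80 at 3 days. With rosiglitazone its rank was 1031.

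**Figure D1:**
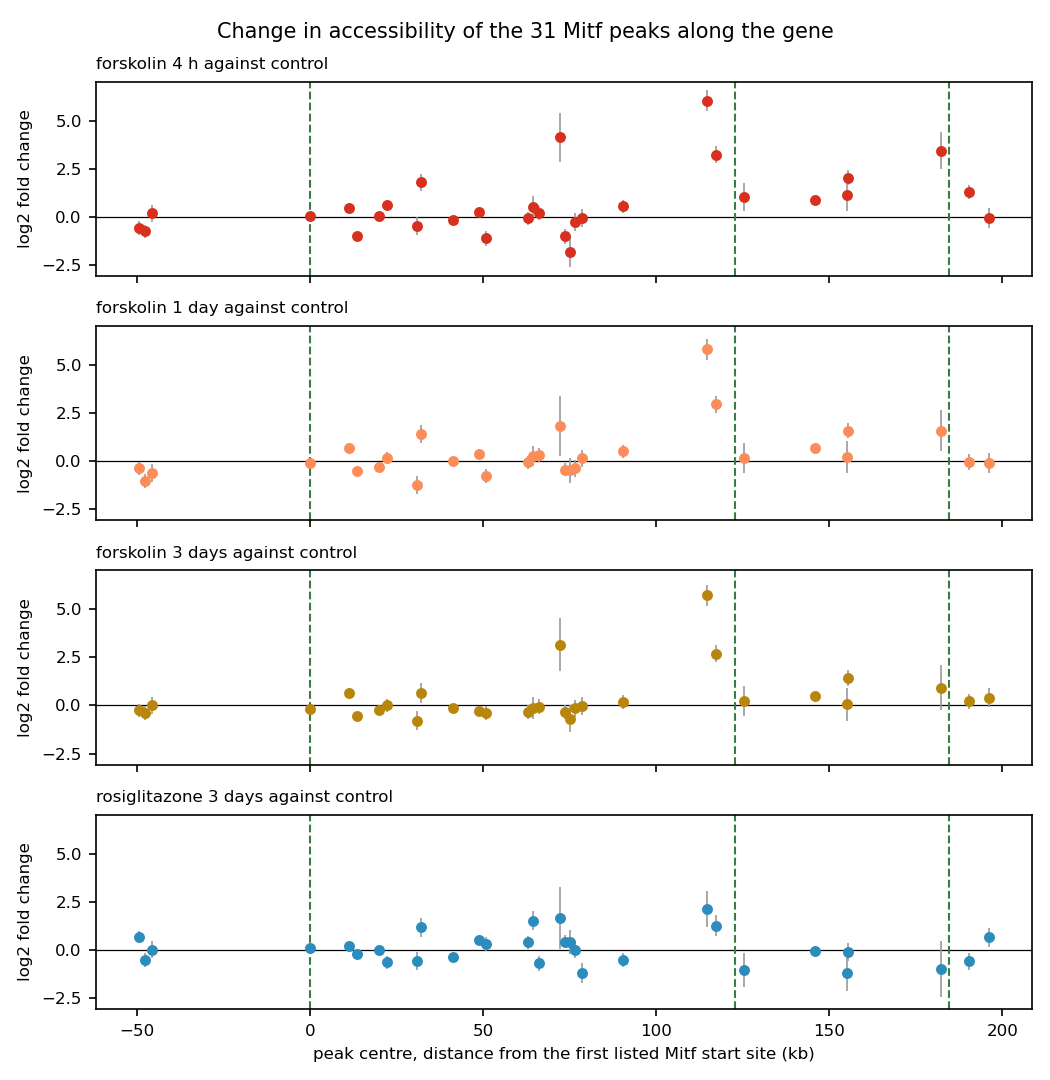
Log2 fold change (y axis, ± SE) of each of the 31 Mitf peaks against the distance of its centre from the first listed start site in kb (x axis), 1 panel per treatment against control, with dashed lines at the 3 start sites. The start-site peak at 0 stays near 0 in all panels, while the peaks at 114.6, 117.4, 146.0 and 155.3 kb lie higher in the 3 forskolin panels than in the rosiglitazone panel. The last peak, at 196.3 kb, is highest in the rosiglitazone panel.

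At 4 hours 8 of the 31 Mitf peaks were past the threshold (adjusted p below 0.05) as higher and 3 as lower, beside 18.5% and 12.8% of all tested peaks. Of those 8, 5 were also higher at 1 day, 4 were higher at all 3 times, and 0 were past the threshold with rosiglitazone. Since Mitf was taken up for this contrast, nothing is read from those counts.

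The 4 peaks past the threshold as higher at all forskolin times were the body peak and its neighbours at 97924288, 97952868 and 97962165. At 97924288, centred 117.4 kb from the first start site, the levels were 0.404 and 0.578 CPM in control, 5.40 and 4.05 at 4 hours. The 1-day libraries had 5.08 and 2.80 CPM and the 3-day libraries 3.54 and 3.01 CPM. Rosiglitazone gave 1.24 and 1.17 CPM, between control and forskolin with no overlap on either side. The peak at 97952868 was already open in control, at 13.1 and 9.08 CPM, and stood at 20.4 and 19.9 at 4 hours. The 1-day libraries had 18.8 and 16.3 CPM and the 3-day libraries 17.2 and 13.6 CPM. Rosiglitazone libraries had 11.2 and 9.63 CPM there, overlapping control. At 97962165 control had 0.605 and 1.40 CPM, the 4-hour libraries 4.94 and 3.62, the 1-day libraries 3.69 and 2.6 and the 3-day libraries 2.77 and 2.85, with 1.24 and 0.679 in rosiglitazone. The peak at 97952868 was not past the threshold at 1 day without S2. At 3 days it was not past it with DESeq2, in a fit of only the groups compared, or without S2 or S7. The peak at 97962165 was not past it at 1 day without S1 or S5, nor at 3 days without S1.

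Another pair of peaks, near the melanocyte-type start site, was highest at 4 hours and past the threshold against control at that time only. At 97989382, 2.2 kb before that start site, control had 0.202 and 0.0825 CPM and the 4-hour libraries 1.38 and 1.75. At 1 day it had 0.559 and 0.306, at 3 days 0.354 and 0.158, and with rosiglitazone 0 and 0.124. The log2 difference of 3 days from 4 hours was −2.53 ± 0.801. At 97997178, 5.4 kb after that start site, control had 1.51 and 1.73 CPM and the 4-hour libraries 4.21 and 3.87, while the other 6 treated libraries lay between 0.988 and 1.95. Here the log2 difference from 4 hours was −1.35 ± 0.349 at 1 day and −1.09 ± 0.352 at 3 days. Both peaks are described because they were high in the 4-hour libraries, which these differences share, so no p-value is given.

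**Figure D2:**
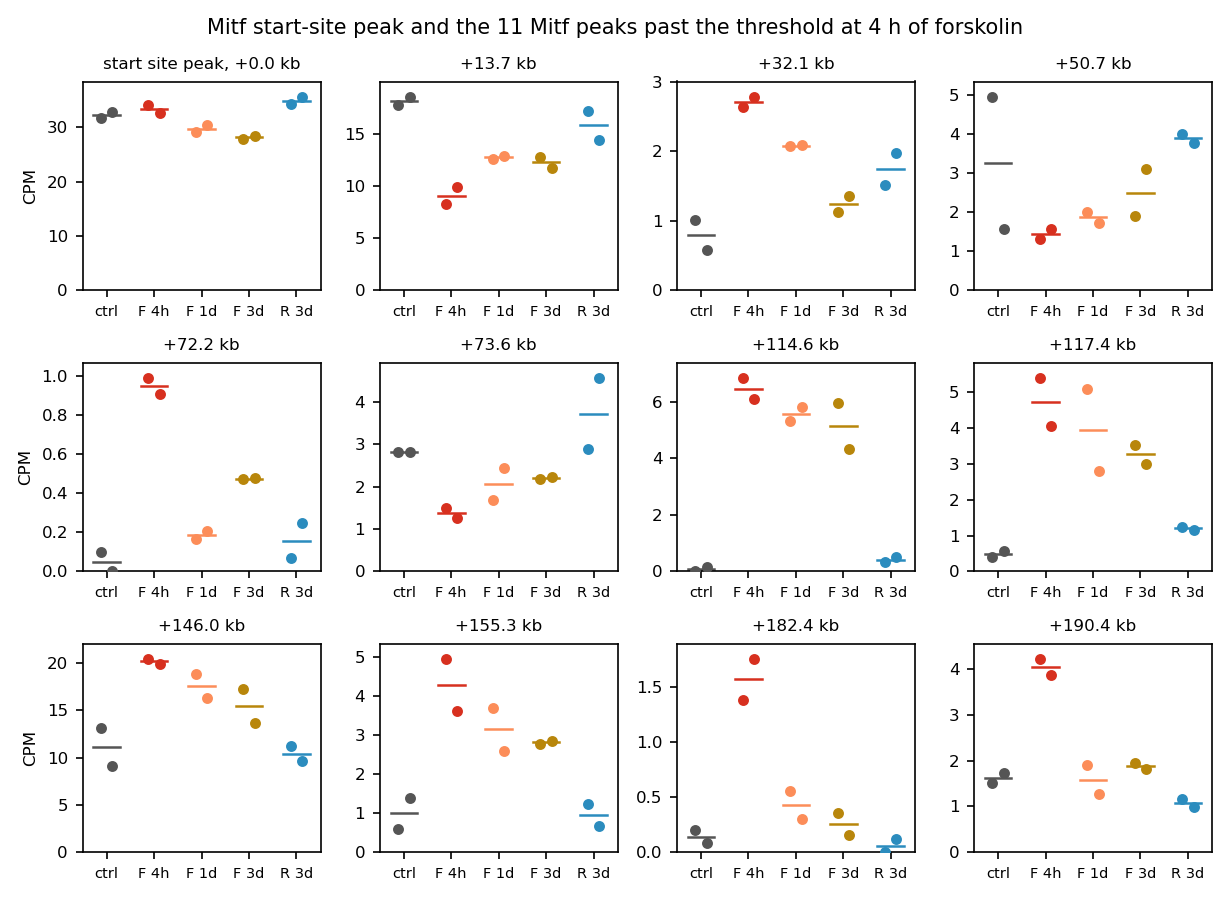
CPM (y axes, from 0) in each library (points; bars are group means) for the Mitf start-site peak and the 11 Mitf peaks past the threshold at 4 hours, titled by distance from the first start site. Groups on the x axis are control (ctrl), forskolin at 4 hours, 1 day and 3 days (F 4h, F 1d, F 3d) and rosiglitazone at 3 days (R 3d). The start-site panel runs from 27.9 to 35.6 CPM. In the panels at +114.6, +117.4, +146.0 and +155.3 kb all forskolin libraries lie above both controls, narrowly so at +146.0 kb at 3 days. Those at +182.4 and +190.4 kb are highest at 4 hours.

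Of the 3 Mitf peaks past the threshold as lower at 4 hours, the one at 97857582 had overlapping libraries, with 4.94 and 1.57 CPM in control and 1.32 and 1.57 at 4 hours, and it was not past the threshold without any 1 of S1, S3 and S4. The one at 97880526 had 2.83 and 2.81 CPM in control and 1.51 and 1.27 at 4 hours, and was not past it without any 1 of S1 to S4. The clearest was at 97820393, 13.3 kb after the first start site, with 17.7 and 18.5 CPM in control, 8.30 and 9.85 at 4 hours. The 1-day libraries had 12.6 and 12.9 CPM and the 3-day libraries 12.8 and 11.7 CPM. Rosiglitazone gave 17.2 and 14.4 CPM. The 1-day level differed from that at 4 hours by 0.49 ± 0.157 on the log2 scale, given with no p-value for the same reason as above. Before the body peak, 2 Mitf peaks were past the threshold as higher at 4 hours, at 97838977 and at 97879227. The first had 1.01 and 0.578 CPM in control and 2.63 and 2.78 at 4 hours. At 97879227 the control held 1 count in 2 libraries and the 4-hour group 30, so that the ratio of 20.8 has a counting interval from 3.46 to 850.

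With rosiglitazone 1 of the 31 Mitf peaks rose and 0 fell against control, beside 3.23% and 3.32% of all tested peaks (6 Mitf peaks were higher and 2 lower at an unadjusted p below 0.05, and DESeq2 called 0). The peak that rose, at 97871357, had 1.21 and 0.578 CPM in control and 2.55 and 2.47 with rosiglitazone, a log2 fold change of 1.51 ± 0.495 (adjusted p = 0.0481). That call ended when any of 8 libraries was left out (adjusted p up to 0.371 without S2), with a scaling that follows each peak's mean level in every library (the level-dependent offset; 0.0605) and with DESeq2 (0.126).

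The comparison of forskolin with rosiglitazone at 3 days uses no control library. It shares the 3-day forskolin libraries with the comparison for which Mitf was taken up. At 97924288 forskolin was higher by a log2 fold change of 1.44 ± 0.359, at 97962165 by 1.56 ± 0.394 and at 97952868 by 0.58 ± 0.159. These 3 peaks were described above because they were higher than control in the 3-day forskolin libraries. Those libraries are shared here, so no p-value is given for them. Forskolin was lower at 97871357 by −1.63 ± 0.476. That peak was described above for its rise in the rosiglitazone libraries, which are shared here, so it too has no p-value. Forskolin was also lower at 97855658 (−0.80 ± 0.25, adjusted p = 0.0135) and, before the gene, at 97757436 (−0.90 ± 0.316, adjusted p = 0.0305). Both were picked after their values were seen. The calls at all of these lower peaks were each lost without 1 or more of S7 to S10. Those at 97855658 and 97757436 also ended with DESeq2 (adjusted p = 0.0607 and 0.095). With the body peak included, 4 Mitf peaks were higher and 3 lower with forskolin, beside 12.9% and 8.84% of all tested peaks. Nothing is read from the count of higher peaks. The remaining 24 Mitf peaks were not past the threshold, and lay on both sides of 0.

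Summed over all its peaks, Mitf changed little. The sums were 138 and 127 CPM in control, 157 and 148 at 4 hours, 146 and 137 at 1 day, 138 and 128 at 3 days and 133 and 134 with rosiglitazone. The 4-hour libraries were the highest, with a log2 fold change of 0.20 ± 0.0704 against control, which was 0.14 without the body peak. Control, 3 days of forskolin and rosiglitazone overlapped one another, and rosiglitazone differed from control by 0.01 ± 0.0708 (adjusted p = 0.97).

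**Figure D3:**
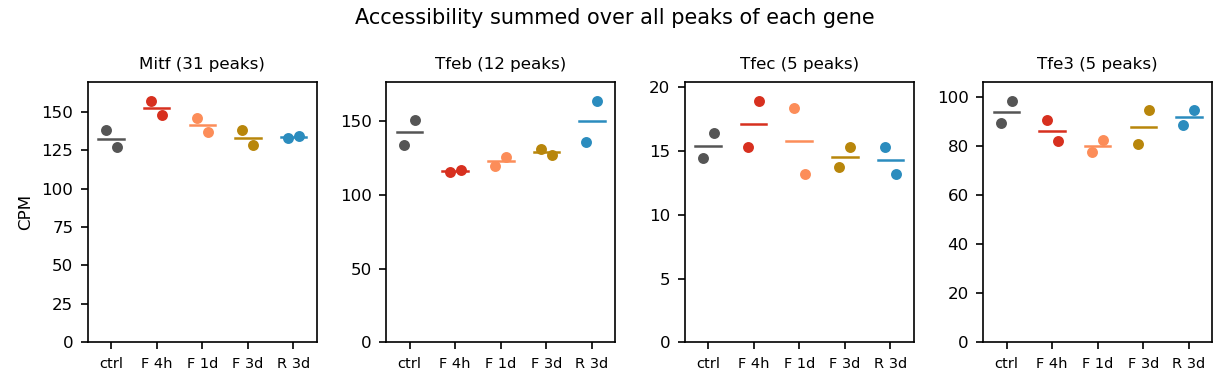
CPM summed over all peaks of Mitf, Tfeb, Tfec and Tfe3 (y axes, from 0) in each library (points; bars are group means), with groups named as ctrl, F 4h, F 1d, F 3d and R 3d. Mitf is highest and Tfeb lowest at 4 hours of forskolin, and Tfec overlaps in all groups against control.

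Per kb of peak, which allows genes to be compared, the control level was 45.5 ± 3.09 CPM (SD, n = 2) for Tfe3, 22.5 ± 1.85 for Tfeb, 11.1 ± 0.639 for Mitf and 6.82 ± 0.622 for Tfec. The order was the same in every group, and the groups of neighbouring genes did not overlap within any treatment. Tfe3 and Tfeb had 61.5% and 59.0% of their counts in a single peak, at a start site in both cases, and Mitf 22.9%. In Tfec the largest share was 37.2%, in a peak inside the gene.

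Tfeb (chromosome 17, 47737037 to 47792416), the lysosomal regulator, was lowest at 4 hours, where Mitf was highest. Its summed level was 134 and 151 CPM in control, 116 and 117 at 4 hours, 120 and 126 at 1 day, 131 and 127 at 3 days and 136 and 164 with rosiglitazone. All forskolin libraries were below both controls, and rosiglitazone overlapped control. The fall was −0.29 ± 0.0811 at 4 hours (adjusted p = 0.00829) and −0.22 ± 0.0805 at 1 day (adjusted p = 0.0384), beside 22.4% and 27.7% of all tested genes that fell. Without S2 the adjusted p was 0.16 at 4 hours and 0.38 at 1 day, without S3 it was 0.0743 at 4 hours, and scaling by library size alone gave −0.06 at 1 day (0.534).

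The wide peak over the first 2 Tfeb start sites (47736898 to 47738538) carried most of this. It had 87.0 and 92.6 CPM in control, 72.4 and 70.5 at 4 hours, 65.8 and 69.4 at 1 day, 71.9 and 77.2 at 3 days and 77.3 and 96.3 with rosiglitazone. Its fall was −0.33 ± 0.117 at 4 hours (adjusted p = 0.0239) and −0.41 ± 0.117 at 1 day (adjusted p = 0.00647). With the level-dependent offset the adjusted p was 0.708 and 0.817, so a fall relative to peaks of like level was not past the threshold. Without S2 the calls also ended (0.178 and 0.0986), and that at 4 hours ended without any 1 of S1, S3 and S4 and that at 1 day without S5 (0.0978).

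Inside Tfeb, 3 weaker peaks fell at 4 hours, and 2 of them overlapped control at 1 day. At 47748730 control had 4.04 and 5.20 CPM, the 4-hour libraries 2.83 and 1.81, the 1-day libraries 4.58 and 4.69, the 3-day libraries 5.54 and 4.35 and rosiglitazone 5.16 and 6.11. That is a fall of −1.01 ± 0.289 (adjusted p = 0.00487; 0.112 without S2, 0.121 without S4), and the log2 difference from 4 hours was then 1.00 ± 0.273 at 1 day and 1.11 ± 0.277 at 3 days. At 47762488 the difference from control was −0.49 ± 0.169 at 4 hours (adjusted p = 0.0192; 0.309 without S2, 0.258 without S3, 0.0671 with DESeq2), and that from 4 hours was 0.52 ± 0.16 at 1 day and 0.51 ± 0.163 at 3 days. The later differences share the 4-hour libraries by which these peaks were picked and carry no p-value. The peak at 47773484 fell by 0.70 on the log2 scale (adjusted p = 0.0454), a call that most alternatives ended.

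Rises at Tfeb were fewer. A small peak at 47767198 held 5 counts in control and 46 at 4 hours, which is 6.39 times as many after scaling (counting interval 2.55 to 20.6) (adjusted p = 0.00774; 0.0978 without S2 and 0.121 without S4). At 47754107, 16.2 kb after a start site, control had 3.83 and 6.19 CPM, 3 days of forskolin 9.84 and 7.52, and rosiglitazone 8.26 and 10.4. Both 3-day treatments were above control there, by 0.78 ± 0.228 (adjusted p = 0.0122) and 0.88 ± 0.226 (adjusted p = 0.00819), and their difference was −0.09 ± 0.202. Both calls ended without S1 (0.238 and 0.215). The 2 comparisons share their control libraries.

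**Figure D4:**
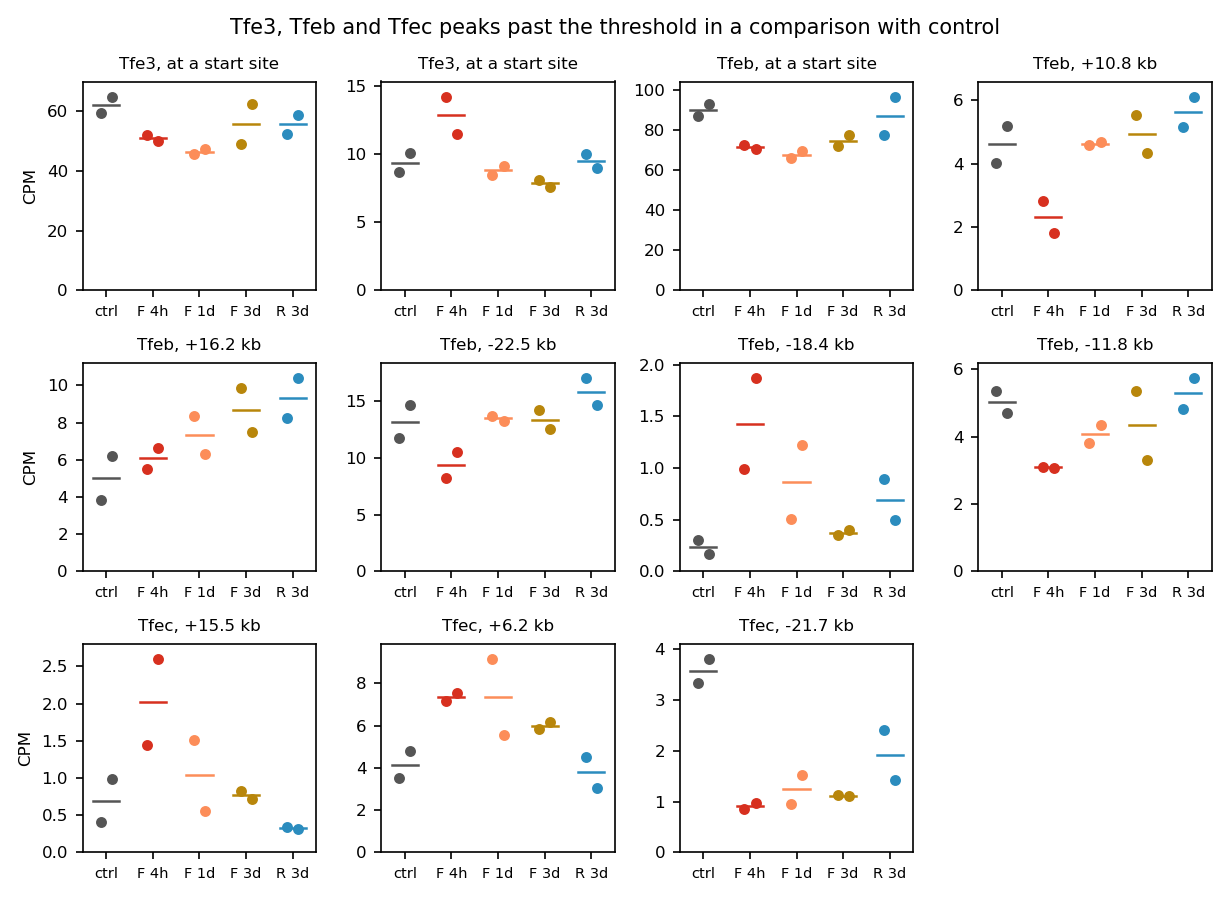
CPM (y axes, from 0) in each library (points; bars are group means) for the Tfe3, Tfeb and Tfec peaks past the threshold in any comparison with control, titled by the distance to the nearest listed start site (minus for upstream); groups are ctrl, F 4h, F 1d, F 3d and R 3d. The Tfec peak at −21.7 kb is lower at all 3 forskolin times, while the Tfeb peaks at +10.8 and −22.5 kb dip at 4 hours and overlap control at 1 day.

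Tfec (chromosome 6, 16830927 to 16898464, minus strand), known from macrophages and osteoclasts, had no deposited peak over its listed start site, and its nearest peak lay 6.2 kb inside the gene. By adjusted p, the clearest change among the relatives of Mitf was in a Tfec peak 21.7 kb before the gene (16920118 to 16920526). It had 3.33 and 3.80 CPM in control, 0.856 and 0.966 at 4 hours, 0.95 and 1.53 at 1 day, 1.12 and 1.11 at 3 days and 2.41 and 1.42 with rosiglitazone. All forskolin libraries were below both controls by more than the spread within groups. The fall was −1.96 ± 0.43 at 4 hours (adjusted p = 0.000216, at most 0.00755 in any alternative), −1.51 ± 0.404 at 1 day (adjusted p = 0.00357) and −1.67 ± 0.423 at 3 days (adjusted p = 0.00339). Without S2 the later calls ended narrowly (0.0549 and 0.0504), and without S5 that at 1 day did (0.0935). Rosiglitazone was lower by 0.91 on the log2 scale, with an adjusted p of 0.164.

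Inside Tfec, 2 of the 3 peaks rose at 4 hours. The peak nearest the start site (16891631 to 16892237) had 3.53 and 4.79 CPM in control, 7.18 and 7.55 at 4 hours, 9.16 and 5.55 at 1 day, 5.84 and 6.17 at 3 days and 4.54 and 3.03 with rosiglitazone. It rose by 0.81 ± 0.249 at 4 hours (adjusted p = 0.00873) and 0.80 ± 0.247 at 1 day (adjusted p = 0.0118), with 0.118 and 0.146 without S1 and, at 1 day, 0.419 without S5. A small peak at 16882815 rose by 1.49 ± 0.583 at 4 hours (adjusted p = 0.0414; 0.346 without S4). At 16797529, 32.8 kb past the gene's other end, 3 days of forskolin gave 2.53 and 2.77 CPM and rosiglitazone 5.57 and 5.68, a difference of −1.09 ± 0.281 (adjusted p = 0.00249) that held in all alternatives run. Summed over all 5 peaks these opposite changes left 14.4 and 16.4 CPM in control and 15.3 and 18.9 at 4 hours (0.15 ± 0.164, adjusted p = 0.498). Summed over the 3 peaks inside the gene the difference at 4 hours was 0.80, past the threshold.

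Tfe3 (chromosome X, 7762530 to 7775202), the second mTORC1-controlled member, has 2 start sites, each with a peak. The 2 peaks had different courses, and that difference was not tested. The peak at the first (7762393 to 7763026) had 59.1 and 64.6 CPM in control, 52.0 and 49.9 at 4 hours, 45.5 and 47.2 at 1 day, 49.0 and 62.1 at 3 days and 52.4 and 58.5 with rosiglitazone. It fell by 0.42 on the log2 scale at 1 day (SE 0.121, adjusted p = 0.00736), a call lost with the level-dependent offset (0.367) and without S2 or S5 (0.126 and 0.0884). The peak at the second start site (7763696 to 7764110) had 8.68 and 10.1 CPM in control, 14.2 and 11.5 at 4 hours, 8.49 and 9.12 at 1 day, 8.13 and 7.60 at 3 days and 10.0 and 9.02 with rosiglitazone. It was 0.45 ± 0.18 above control at 4 hours (adjusted p = 0.0481, lost in most alternatives). Its log2 difference from 4 hours was −0.54 ± 0.17 at 1 day and −0.70 ± 0.177 at 3 days, given with no p-value since the 4-hour libraries are shared. The summed Tfe3 level was 89.4 and 98.4 CPM in control and 77.7 and 82.4 at 1 day, a fall of −0.23 ± 0.0895 (adjusted p = 0.0452) that ended in 7 of 10 fits that leave out 1 library.

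Counts over the 53 peaks are given beside the shares over all peaks. With forskolin against control they include Mitf, which was taken up for that response, so nothing is read from them. At 4 hours 12 peaks rose and 8 fell, beside 18.5% and 12.8%, and 8 of the risen and 3 of the fallen were Mitf peaks. At 1 day 7 rose and 5 fell, beside 12.9% and 9.79%, with 6 and 2 of them in Mitf. At 3 days 5 rose and 2 fell, beside 8.5% and 5.32%, with 4 and 1 of them in Mitf. Rosiglitazone gave 2 risen and 0 fallen peaks, beside 3.23% and 3.32% (3 fallen at an unadjusted p below 0.05, 0 by DESeq2). Forskolin against rosiglitazone gave 5 higher and 4 lower, beside 12.9% and 8.84%. Between forskolin times, 3 peaks were higher and 2 lower at 1 day than at 4 hours, beside 2.56% and 3.01%, and 2 were higher and 3 lower at 3 days than at 4 hours, beside 4.34% and 6.78%. From 1 day to 3 days 0 of 53 passed, beside 0.187% of all peaks (3 at an unadjusted p below 0.05, 0 by DESeq2). Scaling by library size alone, which moves the median of all peaks to 0.10 at 4 hours, 0.19 at 1 day and 0.11 at 3 days, gave 12 risen and 4 fallen peaks at 4 hours and 8 and 3 at 1 day. The comparisons with control share S1 and S2.

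The farthest Mitf peak taken, 49.1 kb before the gene, had 2.78 ± 0.202 CPM in control and 4.35 ± 0.405 with rosiglitazone. The nearest one left out, 68.0 kb past the other end, had 1.19 ± 0.746 and 1.39 ± 0.308 CPM. Farther out, a peak 79.6 kb past the Mitf end had 2.76 ± 0.52 CPM in control, 0.681 ± 0.404 at 4 hours, 0.511 ± 0.146 at 1 day and 6.68 ± 0.969 with rosiglitazone. For Tfec the nearest peak left out, 59.7 kb away, had 1.49 ± 1.17 CPM in control and 0.675 ± 0.583 at 4 hours.

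Genes that regulate MiT/TFE proteins or are known as their targets were counted in 5 lists by summed accessibility. Of 85 genes tested, 6 rose and 30 fell at 4 hours, 4 rose and 40 fell at 1 day, 3 rose and 13 fell at 3 days, and 6 rose and 5 fell with rosiglitazone. Over all genes, 12.5% rose and 22.4% fell at 4 hours, 9.6% and 27.7% at 1 day, 5.36% and 10.2% at 3 days and 2.45% and 5.05% with rosiglitazone. These splits depend on the scaling, since the median of all genes lay at −0.12 at 4 hours and −0.13 at 1 day. With scaling by library size alone they were 11 and 19, 9 and 18, 4 and 5, and 9 and 0, and with the level-dependent offset 10 and 17, 8 and 20, 4 and 5, and 9 and 1.

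Among regulators, Rptor, the subunit of mTORC1 that recruits its substrates, was the only gene whose summed level was called as risen against control. Its 29 peaks summed to 116 ± 1.43 CPM (SD, n = 2) in control and 215 ± 8.89 at 4 hours, a rise of 0.89 ± 0.0682 (adjusted p = 5.46e-09), and to 139 ± 0.415 at 1 day (0.26 ± 0.0685, adjusted p = 0.0059). Of its 28 tested peaks 15 rose and 0 fell at 4 hours, beside 18.5% and 12.8% of all peaks. The other calls among the 21 regulators tested were falls, 5 at 4 hours and 8 at 1 day, beside 22.4% and 27.7% of all genes. The 4-hour share is near that of all genes. Among the falls was Rheb, the GTPase that activates mTORC1 (−0.37 ± 0.0723 at 1 day, adjusted p = 0.000647). Of its 8 tested peaks 0 rose and 1 fell at 1 day, beside 12.9% and 9.79% of all peaks. A summed fall did not mean that most peaks fell. Gsk3b, among the falls at 4 hours (−0.18 ± 0.068), had 7 of 17 tested peaks risen and 1 fallen. Its 4-hour call ended with library size alone (adjusted p = 0.302), the level-dependent offset (0.119) and DESeq2 (0.091). The median regulator stood at −0.16 at 4 hours, beside −0.12 for all genes.

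None of the 27 lysosomal target genes rose at any forskolin time (0 also at an unadjusted p below 0.05 and by DESeq2). Over all genes 12.5% rose at 4 hours, 9.6% at 1 day and 5.36% at 3 days. In the same list 9 fell at 4 hours, 8 at 1 day and 3 at 3 days, beside 22.4%, 27.7% and 10.2% of all genes. The shares fallen at 1 day and 3 days are near those of all genes. Atp6v0d1, a subunit of the proton pump that acidifies lysosomes, went from 169 ± 16.7 to 116 ± 3.11 CPM at 4 hours (−0.55 ± 0.0745, adjusted p = 9.04e-06). Lamp1, a major lysosomal membrane protein, went from 56.5 ± 0.627 to 33.9 ± 2.49 CPM at 1 day (−0.73 ± 0.122, adjusted p = 0.000153). Of 15 autophagy genes, 7 fell at 4 hours and 10 at 1 day, beside 22.4% and 27.7% of all genes. Uvrag, which acts in autophagosome maturation, rose at 4 hours (0.32 ± 0.0578, adjusted p = 0.000268). Of 12 related E-box factors, 1 rose at 4 hours, beside 12.5% of all genes. It was Mlx, the partner of Mlxipl (0.38 ± 0.112, adjusted p = 0.0126). In that list 7 fell at 4 hours and 10 at 1 day, beside 22.4% and 27.7%. Srebf1, the regulator of lipid synthesis, was at −0.48 ± 0.0796 at 4 hours (adjusted p = 9.17e-05). The medians of the lysosomal, autophagy and E-box lists at 4 hours were −0.17, −0.27 and −0.21.

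The metabolic target list was mixed. At 4 hours 3 of 10 rose and 2 fell, beside 12.5% and 22.4% of all genes. At 1 day 3 rose and 4 fell, beside 9.6% and 27.7%. At 3 days 3 rose and 0 fell, beside 5.36% and 10.2%, and with rosiglitazone 5 rose and 0 fell, beside 2.45% and 5.05%. In the 2 comparisons with 0 fallen, 1 and 0 were lower at an unadjusted p below 0.05, and 0 by DESeq2. Ppargc1a, the coactivator of mitochondrial biogenesis, went from 230 ± 19.7 CPM in control to 304 ± 5.33 at 4 hours (0.40 ± 0.0597, adjusted p = 2.48e-05) and 295 ± 3.55 with rosiglitazone (0.36 ± 0.0597, adjusted p = 0.000836). Fgf21, a hormone of the fasting response, rose with rosiglitazone from 2.76 ± 0.0572 to 9.05 ± 1.01 CPM (1.70 ± 0.266, adjusted p = 0.000459). Ppara, the fatty acid sensing receptor, fell at 4 hours from 268 ± 8.94 to 201 ± 8.93 CPM (−0.41 ± 0.0566, adjusted p = 9.96e-06).

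**Figure D5:**
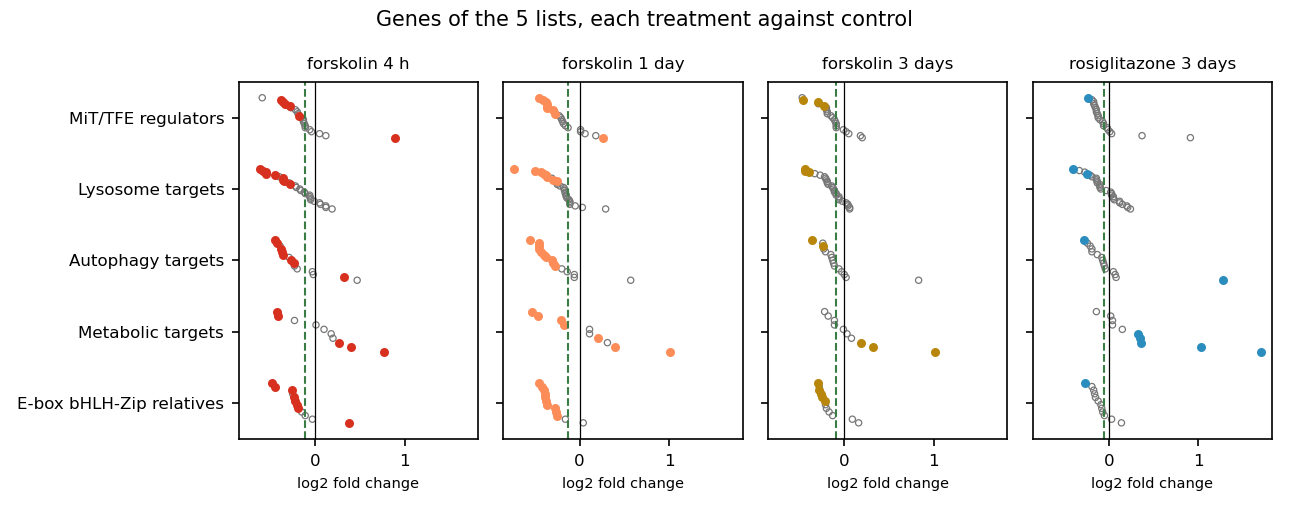
Log2 fold change of summed accessibility (x axes) for every tested gene of the 5 lists (rows), 1 panel per treatment against control; filled points passed the threshold, open points did not, and the dashed line is the median of all tested genes. Most filled points at 4 hours and 1 day lie left of 0, apart from Rptor (both times), Uvrag and Mlx (4 hours) and metabolic targets on the right.

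Markers were read as peaks over listed start sites. Of 8 adipocyte markers 5 had one. Their sum was 215 to 247 CPM in control, 194 to 222 at 4 hours, 172 to 191 at 1 day, 191 to 221 at 3 days and 224 to 236 with rosiglitazone. At 1 day both libraries were thus below both controls, while the other treated groups overlapped control. Of 6 progenitor markers 0 had such a peak, and of 11 melanocyte markers 2 did, Mc1r and Kit, with none over Tyr, Tyrp1 or Dct. Start sites were listed for 6, 4, 7 and 9 of the adipocyte, progenitor, melanocyte and macrophage markers, so the rest could not be read. Of 14 macrophage and osteoclast markers 4 had such a peak (Cd68, Lyz2, Trem2 and Ctsk), and none lay over Itgam, Ptprc, Fcgr1, Acp5 or Oscar. The sum of those 4 was 16.9 to 19.1 CPM in control, 31.8 to 32.0 at 4 hours, 29.6 to 30.2 at 1 day, 27.6 to 29.3 at 3 days and 24.0 to 25.0 with rosiglitazone. It was thus higher in all treated groups than in control. By gene, the means in control and at 4 hours were 8.22 and 16.3 CPM for Trem2 and 6.16 and 11.6 for Cd68. They were 1.71 and 2.28 CPM for Ctsk, and 1.88 and 1.75 for Lyz2, which was lower. The part of such cells in the Mitf and Tfec results was not tested.

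The 10-library course of Mitf's sum was most like that of Rgs5 (r = 0.970), Cldn18 (0.959), Adamts14 (0.958), Mbtd1 (0.954) and Tnik (0.943). These are Pearson correlations of log2 CPM among 10321 genes with 3 or more tested peaks, without Gm and Rik gene models. Rgs5 ran from 24.7 CPM in control to 36.2 at 4 hours and back to 22.6 at 3 days. Among the 113187 peaks compared with the body peak, the 5 most alike had r from 0.991 to 0.995. They lay near Cyp24a1, in Gsr, near Pcf11 and, in 2 cases, with no gene within 50 kb. Not all of the 118962 tested peaks were compared, so peaks left out could be more alike. The Cyp24a1 peak had 2.87 CPM in control, 8.82, 8.28 and 8.22 at the 3 forskolin times and 4.41 with rosiglitazone. The 10 points share their groups and depth, so these correlations are descriptions only.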

How the data were processed

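Counts per peak were deposited by the authors as raw read counts without normalization, in a single table with 1 column per library. Per the submitters' processing notes, the tools were fastp, Bowtie2, SAMtools, Picard, MACS2, featureCounts, and also deepTools, with GRCm38 and mm10 as builds; versions, and how duplicates, the transposase offset and peak calling across libraries were handled, are not given in the sources used here. Columns are named by group with numbers S1 to S10, which match no labelled replicate.

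Peaks were assigned with RefSeq GRCm38.p6 gene bounds, protein-coding genes only; 7 of the 10 member peaks outside genes have a noncoding gene or pseudogene nearer. The counts were tested in R 4.3.3 with edgeR 4.0.16 (quasi-likelihood F test, robust, TMM, filterByExpr) in 1 fit over all 10 libraries, with Benjamini-Hochberg adjustment over 118962 peaks, or over 16928 genes for counts summed per gene. The biological coefficient of variation of peaks was 0.163. Calls are at an adjusted p below 0.05, CPM are TMM-scaled, and correlations used log2 of CPM plus 1 for genes and plus 0.1 for peaks. The code was checked on simulated counts.

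The members and the lists were chosen with earlier results of these data known. Named by rule were each gene's strongest peak, peaks within 1 kb of gene ends, the peaks with the largest changes against control (8 for Mitf, 3 for each other gene), up to 2 risen and 2 fallen genes per list, and the 5 most alike genes and peaks. A few of these are left to the ranges. The peaks starting at 97757436, 97820393, 97855658, 97857582, 97880526, 97952868, 97997178, 47754107, 47762488, 47773484 and 16797529 were picked after their values were seen. Alternatives were RLE factors, library size alone, a loess offset on mean level (limma 3.58.1), no filter, DESeq2 1.42.0, a fit of only the groups compared, each library left out in turn, peaks inside genes only, and Mitf without its body peak. No genome sequence of peaks was at hand, so peak sequences are not shown.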

Additional observations from a re-analysis of the deposited data

How the results depend on the processing

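No paired analysis was possible because the column names do not tie libraries to labelled replicate numbers. None of the results changed sign past a threshold in any alternative run. The number of member peaks past the threshold was 2 for rosiglitazone against control and became 1 with the level-dependent offset and 0 with DESeq2. It was 5 for 1 day against 4 hours and became 3 with RLE factors and 1 with DESeq2, and 5 for 3 days against 4 hours, which became 2 with DESeq2. Leaving out 1 library gave 10 to 21 peaks at 4 hours (main count 20; 10 without S2 and 13 without S4), 3 to 13 at 1 day, 4 to 9 at 3 days and 0 to 2 with rosiglitazone. For forskolin against rosiglitazone it gave 5 to 9, for 1 day against 4 hours 0 to 5, for 3 days against 4 hours 1 to 7 and for 3 days against 1 day 0 to 1.

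For the summed level of Mitf against control only log2 fold changes are given, as a description. At 4 hours (0.20) it was 0.19 with DESeq2 and 0.14 without the body peak, and ran from 0.14 to 0.26 with 1 library left out. At 1 day it was 0.24 with library size alone and 0.25 with the offset. From 4 hours to 3 days Mitf ran from −0.26 to −0.15 with 1 library left out. Tfeb at 1 day was −0.06 with library size alone and −0.05 with the offset, and −0.30 to −0.13 with 1 library left out; at 4 hours that range was −0.37 to −0.20. Tfeb at 3 days of forskolin against rosiglitazone passed with library size alone (−0.22) and with the offset (−0.20), and ran from −0.31 to −0.08. Tfe3 at 1 day was −0.08 and −0.04 under those scalings and ran from −0.30 to −0.16. Tfec passed when summed inside the gene only, with 0.80 at 4 hours, 0.56 at 1 day and 0.67 against rosiglitazone. Calls over the lists at 1 day went from 44 to 27 with library size alone and 28 with the offset, and at 3 days from 16 to 9 with either. With 1 library left out they ran from 17 to 45 at 4 hours, 23 to 49 at 1 day, 3 to 38 at 3 days and 3 to 18 with rosiglitazone. The causes were not tested. Peaks with few counts, such as the one at 97879227, allow only wide intervals at this depth.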
